A study of Mus musculus with 36 samples.

Results

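Coch, Otos, Tbx18, Pou3f4 and Emilin2 are 5 genes grouped here under the spiral ligament and its fibrocytes. They are linked to deafness or to the mechanics of hearing in mice or humans. They were chosen by name, with earlier results of these data known, and are 5 of the 48709 genes in the deposited table. Counts of these genes and of the other gene lists, and the shares of all genes beside them, are therefore descriptions. They are no test of a set. Expression was measured by RNA sequencing of stria vascularis cells from CBA mice (CBA/J in the study's methods) of either sex at 1, 9 and 26 months, with 3 libraries an age, A, B and C. The mice were untreated and carried no engineered allele. Each library pooled marginal, intermediate and basal cells, about 1000 in all, from 4 cochleae of 2 mice. A notes sheet beside the values writes 28 months for the oldest group, and the age of 26 months is the one in the labels.

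The spiral ligament is the connective tissue behind the stria vascularis. Its fibrocytes take up potassium that leaves the hair cells and pass it through gap junctions to the basal cells of the stria, which use it to build the endocochlear potential. Coch encodes cochlin, an abundant secreted protein of the inner ear matrix that is mutated in a dominant human hearing loss, and Otos encodes otospiralin, a small secreted protein whose loss impairs hearing in mice. Tbx18 and Pou3f4 encode transcription factors of the otic mesenchyme, from which the fibrocytes derive, and human POU3F4 mutations cause X-linked deafness. Emilin2 encodes a glycoprotein of the extracellular matrix that in the mouse cochlea is known from the basilar membrane. The stria was freed from the ligament by dissection, so these libraries sample the neighbour of the tissue for which the genes are named. In such bulk pools, fewer cells of a type and less RNA per cell cannot be told apart.

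All 5 genes were detected in all 9 libraries and had their highest levels at 9 months. Levels are in RPKM, reads scaled by transcript length and by the number of reads mapped. The study's methods give an approximate number of reads per sample, but the depth of each library is unknown here. Markers of marginal and intermediate cells, which the pools should hold, were abundant. Summed levels were 1228 to 1409 RPKM for 6 marginal cell genes and 3807 to 4105 RPKM for 8 intermediate cell genes. Most of the intermediate cell sum was Dct, with Tyrp1 at or near 0, Kit at most 0.725 and Pmel at most 2.725 RPKM. The 3 basal cell genes summed to 29.0 to 67 RPKM, and 8 hair cell genes to at most 2.78 RPKM. The labels describe 3 independent pools an age, and the study's methods give the same number of biological replicates where they describe cell collection, but fewer, each with technical repeats, where they describe library preparation. Over 450 abundant genes, B and C at 1 month differed with a coefficient of variation of 2.03%, A and C at 9 months with 2.15% and the 26-month libraries with 1.43% to 2.49%, against 5.74% to 13.4% for the other pairs. The independence of libraries within an age was therefore not settled, and each SD, n and p-value rests on it.

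Coch (ENSMUSG00000020953) lies on chromosome 12 from 51593341 to 51605771 on the plus strand of GRCm38, and its longest curated transcript has 11 exons. Otos (ENSMUSG00000044055) lies on chromosome 1 from 92644218 to 92648841 on the minus strand, with 5 exons. The 250 bases before the annotated start of each are shown because these were the pair of genes with the highest levels, and their upstream sequences differ in composition. The sequences are from RefSeq on GRCm38.p6, read 5′ to 3′ in the direction of the gene, with CG dinucleotides in capitals.
Coch, chr12:51593091-51593340, plus strand: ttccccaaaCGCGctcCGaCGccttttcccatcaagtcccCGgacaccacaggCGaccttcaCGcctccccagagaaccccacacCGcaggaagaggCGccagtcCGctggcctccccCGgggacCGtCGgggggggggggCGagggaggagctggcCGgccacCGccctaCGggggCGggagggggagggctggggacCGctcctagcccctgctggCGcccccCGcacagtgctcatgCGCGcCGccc
Otos, chr1:92648842-92649091, minus strand: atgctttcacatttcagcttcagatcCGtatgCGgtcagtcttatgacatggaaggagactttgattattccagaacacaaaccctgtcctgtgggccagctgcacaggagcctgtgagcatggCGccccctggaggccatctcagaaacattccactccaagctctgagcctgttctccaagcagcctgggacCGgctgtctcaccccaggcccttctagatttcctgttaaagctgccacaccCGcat
The Coch sequence held 24 CG dinucleotides and was 74.8% G or C, more than 95.8% of 32851 promoters of the same length, whose median was 52.4%. The Otos sequence held 5 CG dinucleotides and was 54% G or C. The table had 6 entries for the 5 genes, with a pair for Emilin2, and the other 4 entries held 6 to 15 CG dinucleotides at 48.4% to 58% G or C.

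Motifs were sought on both strands from 250 bases before to 50 bases after each start. The octamer ATGCAAAT, the element of POU factors, occurred in 0 of the 6 entries and in 1.74% of all promoters. The T-box element AGGTGTGA occurred in 0 of the 6 and in 1.28% of all. The TATA box letters TATAAA occurred in 1 of the 6, that of Coch, on the opposite strand and 3 bases after the start, and in 13.6% of all promoters. These are descriptions of letters in a window.

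Coch had the highest RPKM of the 5 as deposited, at each age. At 1 month it was at 52.4, 49.7 and 49.4 RPKM in libraries A, B and C, whereas it reached 350.2, 307 and 347 RPKM at 9 months and 155, 156 and 159 RPKM at 26 months. The ages did not overlap, and each 9-month library was above 5 times any 1-month library. Mean levels were 50.5 ± 1.65, 335 ± 24.1 and 157 ± 1.82 RPKM (SD, n = 3). Among the 15806 genes that reached 0.1 RPKM in 3 or more libraries, Coch exceeded 93.6% to 94.1% at 1 month. It exceeded 99.2% to 99.3% of them at 9 months and 98.4% to 98.5% at 26 months.

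Otos followed the same order of ages with a smaller span. Its levels were 27.6, 31.0 and 30.3 RPKM at 1 month, 101.9, 118 and 100.3 RPKM at 9 months, and 46.0, 46.0 and 43.2 RPKM at 26 months, again without overlap. Library B of 9 months, which stood apart from A and C over abundant genes, was the highest for Otos and the lowest for Coch. Mean levels were 29.6 ± 1.78, 107 ± 10 and 45 ± 1.60 RPKM (SD, n = 3). RPKM depends on the transcript length used, and for Otos the exons of all annotated transcripts span 3082 bases against 704 in the curated transcript, a ratio of 4.38, whereas this ratio was 1 to 1.40 for the other 4 genes. The level of Otos relative to another gene therefore carries that uncertainty. Its changes with age do not, except where the trend on exon length was removed, which used 3082 bases for Otos.

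Tbx18 (ENSMUSG00000032419; chromosome 9, 87702800 to 87731260, minus strand, 8 exons) and Pou3f4 (ENSMUSG00000056854; chromosome X, 110814280 to 110817207, plus strand, 1 exon) had levels close to each other. Tbx18 was at 6.45, 6.38 and 6.10 RPKM at 1 month, 9.95, 8.18 and 10.4 RPKM at 9 months and 4.98, 4.88 and 5.10 RPKM at 26 months. The 9-month libraries were the highest and the 26-month libraries the lowest, without overlap, and library B of 9 months was the lowest of its age. A gene of unknown coding status, D030062O11Rik, overlaps Tbx18 on the other strand and was listed at 0 in all 9 libraries.

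Pou3f4 was at 5.95, 6.78 and 6.48 RPKM at 1 month, 11.5, 11.2 and 11.4 RPKM at 9 months and 4.68, 4.73 and 4.78 RPKM at 26 months, the same order of ages as Tbx18. The ratio of Pou3f4 to Tbx18 was 0.922 to 1.06 at 1 month, 1.10 to 1.36 at 9 months and 0.936 to 0.969 at 26 months. So Pou3f4 was above Tbx18 in each 9-month library and below it in each 26-month library, and at 1 month their order differed between libraries. Pou3f4 is X-linked, and the sexes of the pooled mice are not given. Xist, the RNA of the inactive X chromosome, was at 0.225 to 0.3 RPKM at 1 month, 1.18 to 2.05 RPKM at 9 months and 0.55 to 0.625 RPKM at 26 months, and Y-linked Ddx3y was at 6 to 7.05, 4.45 to 7.55 and 12.2 to 12.3 RPKM. The part of the makeup by sex in the values of Pou3f4 was not tested.

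Emilin2 (ENSMUSG00000024053; chromosome 17, 71252172 to 71311978, minus strand, 8 exons) had the lowest level of the 5. It was at 1.35, 1.58 and 1.5 RPKM at 1 month, 4.58, 4.73 and 4.38 RPKM at 9 months and 1.25, 1.23 and 1.13 RPKM at 26 months. The 9-month libraries stood far above the rest, whereas the 26-month libraries lay just under those of 1 month, again without overlap. A long noncoding gene, Gm26561, overlaps the span of Emilin2 on the other strand. Whether their exons overlap was not examined, and reads of any shared stretch cannot be told apart without strand.

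**Figure D1:**
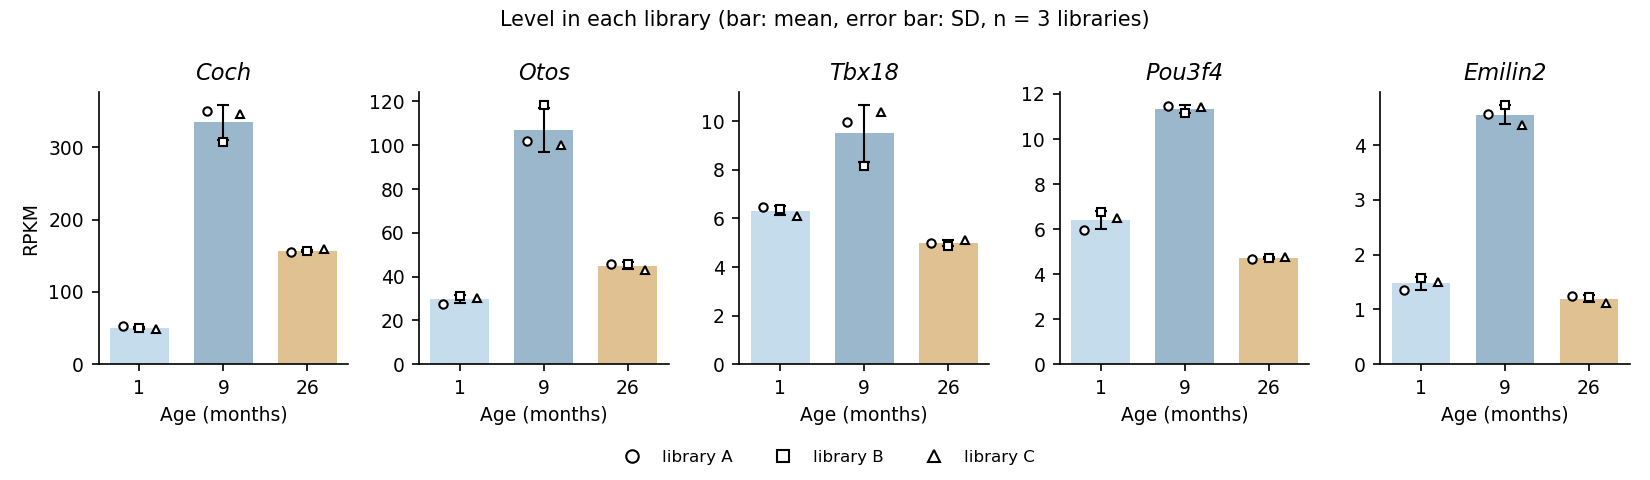
Level of each gene in RPKM (vertical axes from 0, 1 panel a gene) by age in months. Bars are means and error bars SDs of 3 libraries, and symbols mark libraries A, B and C. Each gene was highest in the 3 libraries of 9 months, and Coch ranged from 49.4 to 350.2 RPKM.

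By age order, the genes fell into a pair and a trio. Coch and Otos were lowest at 1 month and in between at 26 months, whereas Tbx18, Pou3f4 and Emilin2 were lowest at 26 months. All 3 values at 9 months lay above all 6 others in 5 of 5 genes, a pattern found in 22.3% of the 15806 genes tested. A moderated F-test over the 3 ages passed an adjusted p of 0.10 for all 5, but did so for 86.3% of all genes tested and does not set them apart. Its adjusted p, from limma, ranged from 3.18e-09 for Coch to 1.48e-05 for Tbx18.

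From the young ear at 1 month to the adult ear at 9 months, Coch, Otos and Emilin2 rose. Tbx18 and Pou3f4 were also higher at 9 months but by less than the fold required. The log2 fold change was 2.72 ± 0.0537 (standard error) for Coch, 1.84 ± 0.0700 for Otos and 1.57 ± 0.0719 for Emilin2, with adjusted p of 4.38e-09, 6.13e-08 and 1.47e-07. It was 0.82 ± 0.0518 for Pou3f4 and 0.58 ± 0.0806 for Tbx18, with adjusted p of 9.05e-07 and 0.000169. These values are on the log2(RPKM + 0.1) scale, tested with limma over all genes, and a gene was called at an adjusted p of at most 0.10 and a log2 fold change of at least 1 in size. So 3 of 5 were called higher, beside 10.1% of all genes tested (1.47% were called lower), and the change of Coch was exceeded by 0.0443% of genes. All 3 values at 9 months were above all 3 at 1 month in 5 of 5, and in 50.4% of all genes.

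Genes as a whole were shifted in that comparison. Over all genes tested the log2 fold change had a median of 0.27, from -0.09 in the fifth with the shortest exons to 0.62 in the fifth with the longest. Of 1827 genes called, 1594 were higher and 233 lower, against 531 and 464 after quantile normalization. With this median subtracted, Coch had a log2 fold change of 2.45, with 1.57 for Otos, 1.29 for Emilin2, 0.54 for Pou3f4 and 0.30 for Tbx18. With the trend on exon length removed, it was 2.57 for Coch, 1.68 for Otos, 1.16 for Emilin2, 0.67 for Pou3f4 and 0.23 for Tbx18, so the 3 calls were the same genes.

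From the adult ear at 9 months to the old ear at 26 months, Coch, Otos, Pou3f4 and Emilin2 fell. Tbx18 was lower by less than the fold required. The log2 fold change was -1.84 ± 0.0719 for Emilin2, the largest of the 5, -1.25 ± 0.0518 for Pou3f4, -1.24 ± 0.0700 for Otos and -1.09 ± 0.0537 for Coch, with adjusted p from limma of 1.06e-07, 1.52e-07, 8.86e-07 and 3.79e-07. For Tbx18 it was -0.91 ± 0.0806 with an adjusted p of 1.36e-05. So 4 of 5 were called lower, beside 4.05% of all genes tested (3.28% were called higher), and a share of 0.531% of genes had a lower value than Emilin2. All 3 values at 26 months were below all 3 at 9 months in 5 of 5, and in 32.6% of all genes. The median of all genes was -0.03, so a general shift was small here. Without library B of 9 months, in which Tbx18 was lowest, its log2 fold change was -1.01 and it passed.

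The comparison of 26 with 1 month separated Coch from the others. Coch rose, with a log2 fold change of 1.63 ± 0.0537 and an adjusted p from limma of 2.32e-08, and was the 1 of 5 called, beside 9.92% of all genes called higher and 2.51% called lower. The other 4 were not called. Their log2 fold changes were 0.60 ± 0.0700 for Otos, -0.28 ± 0.0719 for Emilin2, -0.33 ± 0.0806 for Tbx18 and -0.43 ± 0.0518 for Pou3f4, with adjusted p between 4.42e-05 and 0.00697. The values at 26 months lay above those at 1 month for Coch and Otos, as for 53% of all genes, and below them for Tbx18, Pou3f4 and Emilin2, as for 21.7%. The median of all genes was 0.24 in this comparison, and relative to it the values were 0.36 for Otos, -0.52 for Emilin2, -0.58 for Tbx18 and -0.67 for Pou3f4. Of 1964 genes called, 1568 were higher and 396 lower, against 802 and 740 after quantile normalization. The 3 comparisons share their libraries by pairs, so they are not independent of each other.

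**Figure D2:**
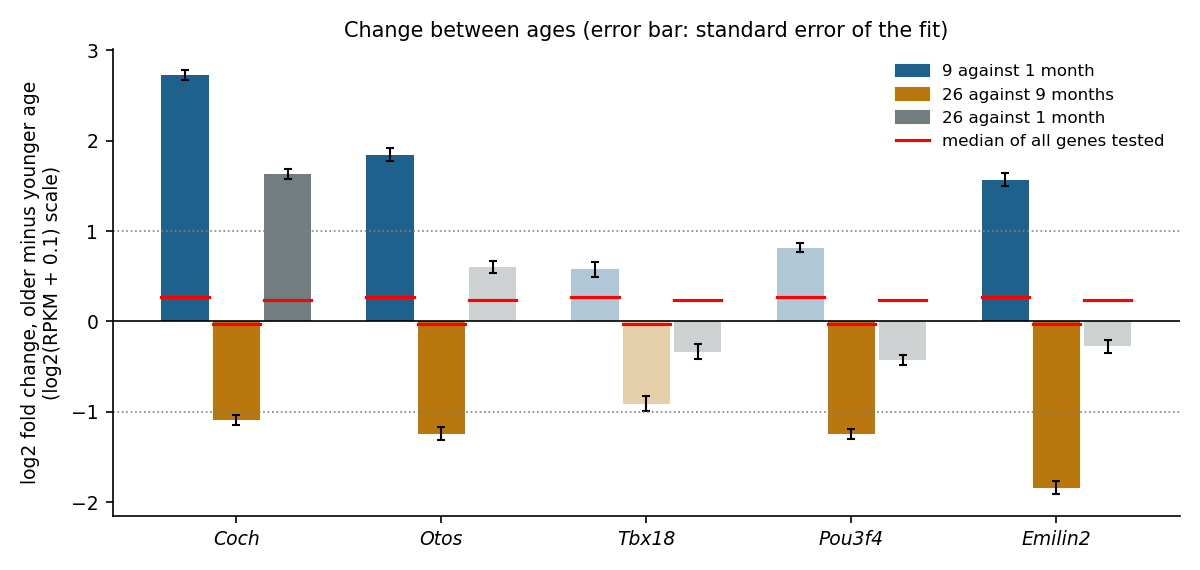
Log2 fold change of each gene, older minus younger age, on the log2(RPKM + 0.1) scale. Bars are coloured by comparison and pale where the gene was not called, error bars are standard errors of the fit, dotted lines mark -1 and 1, and red lines mark the median of all 15806 genes tested. Coch was the gene called in all 3 comparisons and Tbx18 the gene called in none of them.

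When libraries of an age that differed by under 3% in abundant genes were averaged, 5 libraries were left, with 1 at 26 months, whose spread was then taken to be that of the other ages. The calls were those named above, with adjusted p of 0.00994 to 0.0162 for the 4 that fell from 9 to 26 months and 0.00310 to 0.00318 for the 3 that rose from 1 to 9 months. The lower values of Tbx18 and Emilin2 at 26 than at 1 month then had an adjusted p of 0.155 and 0.209.

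Levels relative to Coch in the same library do not depend on a scaling of the whole library. Otos was at 58.8% ± 5.30 of Coch at 1 month, 32.2% ± 5.53 at 9 months and 28.7% ± 1.33 (SD, 3 libraries) at 26 months. If the deposited values rest on the exons of all transcripts, the curated lengths would put Otos at 230.2% ± 20.7, 126% ± 21.7 and 112% ± 5.23 of Coch, above it in each library, so the order of these genes by level is uncertain. Pou3f4 was at 12.7% ± 1.19, 3.40% ± 0.203 and 3.01% ± 0.00804, and Tbx18 at 12.5% ± 0.283, 2.83% ± 0.164 and 3.18% ± 0.0518. Emilin2 was at 2.93% ± 0.311, 1.37% ± 0.149 and 0.765% ± 0.0507. All 4 were thus lower relative to Coch in each 9-month library than in any 1-month library.

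From 9 to 26 months the ratios moved less. On a log2 scale the ratio to Coch differed by -0.84 for Emilin2, -0.17 for Pou3f4, 0.17 for Tbx18 and -0.15 for Otos. Otos overlapped between these ages, so its fall could not be told from that of Coch, with a two-sided exact permutation p of 0.6. In the other 11 of 12 comparisons of ratios the ages did not overlap. With 3 libraries against 3 the smallest p this exact permutation test can give is 0.10, and each of the 11 had that p, 0.109 after adjustment over the 12.

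**Figure D3:**
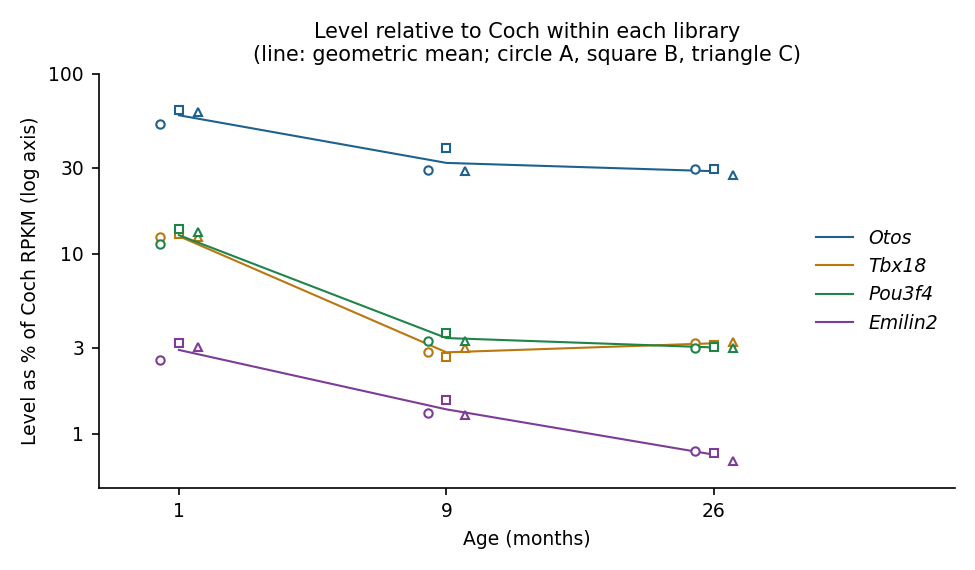
Level of each gene as a percent of the Coch level in the same library (vertical log axis) by age in months. Symbols are libraries and lines join geometric means. Otos had means of 58.8% at 1 month and 32.2% at 9 months, and Pou3f4 and Tbx18 had means of 12.7% and 12.5%, then 3.40% and 2.83%.

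Correlations over the 9 libraries are given as a description, since libraries of an age are alike. Pearson's r of log2(RPKM + 0.1) was 0.94 for Coch with Otos and 0.97 for Tbx18 with Pou3f4. It was 0.98 for Pou3f4 with Emilin2 and 0.53 to 0.71 for Coch with the trio. Otos lay between the groups, with r of 0.89 with Emilin2, 0.78 with Pou3f4 and 0.72 with Tbx18. The genes most like each over the 9 libraries were sought among 6424 or 6425 genes whose mean was 5 RPKM or more, and had r of 0.991 to 0.999. For Coch they were Pde4dip, Hnrnpl, Heatr5b, Sptbn1 and Zmiz1, with Hnrnpl, an RNA-binding splicing factor, at 9.57 ± 0.194, 24.0 ± 0.339 and 16.9 ± 0.306 RPKM at 1, 9 and 26 months (mean ± SD of 3 libraries, here and below). For Otos they were Capns1, Gnb2, Abca2, Kdm5c and Anxa11. For Tbx18 they were Emp1, P4ha1, Cnep1r1, Atp1b1 and Mlx, among which P4ha1, a subunit of the collagen prolyl hydroxylase, was at 13.3 ± 0.0946, 24.2 ± 3.28 and 9.82 ± 0.126 RPKM. For Pou3f4 they included Plxna1, Ttr, Gprc5b and Hs1bp3, and for Emilin2 they were Lynx1, Cd151, Stk11, Ablim3 and Tor1b. No gene was named for more than 1 of the 5, and none of the 5 was among those named for another. Emilin2, whose mean was under 5 RPKM, was not a candidate and so could not be.

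Some genes of ion and water transport in fibrocytes were also highest at 9 months. Of 10 such genes, 5 rose from 1 to 9 months and 0 fell, with a median log2 fold change of 0.95 against 0.27 for all genes. From 9 to 26 months 5 fell and 0 rose, with a median of -0.90 against -0.03. For this list and those below, the shares of all genes tested that were called are the background. They were 10.1% higher and 1.47% lower from 1 to 9 months and 3.28% higher and 4.05% lower from 9 to 26 months. From 1 to 26 months they were 9.92% higher and 2.51% lower. Slc4a11, a membrane transporter of fibrocytes, was at 9.42 ± 0.832, 84.0 ± 3.45 and 28.9 ± 0.801 RPKM, and its rise of 3.15 on the log2 scale from 1 to 9 months was above that of Coch. Gjb2, the gap junction protein most often mutated in human deafness, was at 305 ± 3.63, 740.2 ± 18.8 and 336 ± 1.45 RPKM. Gjb2 is also expressed in the stria itself. Others took another course: Car2, a carbonic anhydrase, was at 311 ± 5.33, 225 ± 9.35 and 221 ± 1.75 RPKM and Slc12a2, a sodium, potassium and chloride cotransporter also found in marginal cells, at 578 ± 32.3, 892 ± 154 and 912 ± 11.5 RPKM. Aqp1, a water channel of fibrocytes, fell from 2.93 ± 0.325 to 0.458 ± 0.0382 RPKM between 9 and 26 months.

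Collagens and small proteoglycans make up the fibrous matrix in which cochlin and otospiralin lie. Of 16 matrix genes tested in a list of 17, 9 fell from 9 to 26 months and 0 rose, with a median log2 fold change of -1.12. Among the 9, Col1a2 and Col3a1 had low levels, with means of 0.575 and 0.417 RPKM at 9 months and 0.233 and 0.1 RPKM at 26 months. Dcn, which encodes decorin, a proteoglycan that binds collagen fibrils, was at 14.9 ± 0.805, 67.6 ± 3.76 and 12.5 ± 0.458 RPKM at the 3 ages. Col9a2, a chain of type IX collagen, fell from 20.5 ± 1.71 to 7.59 ± 0.245 RPKM, and Fn1, fibronectin, from 14.9 ± 0.397 to 6.34 ± 0.146 RPKM. From 1 to 9 months 5 rose and 1 fell, but 4 rose and 4 fell with the trend on exon length removed. Otor, a small secreted cartilage protein of the same tissue, was at 1.70 ± 0.390, 2.88 ± 0.647 and 1.00 ± 0.152 RPKM, and was among the 9 that fell.

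Among the other regulators of otic mesenchyme, 4 of 13 tested fell from 9 to 26 months and 0 rose, with a median log2 fold change of -0.84. Twist1, a transcription factor of mesenchyme, fell from 3.06 ± 0.402 to 1.00 ± 0.150 RPKM, whereas the other 3, Prrx1, Osr2 and Epha4, had mean levels under 1 RPKM, and with a filter of at least 1 RPKM 1 was called. From 1 to 9 months 2 rose and 1 fell, or 1 and 1 after quantile normalization, after median of ratios scaling or with the trend on exon length removed. Of all genes tested, 10.1% were called higher and 1.47% lower in that comparison. Foxc1 rose from 4.65 ± 0.307 to 10.2 ± 1.04 RPKM, and Prrx2, a homeobox factor of mesenchyme, fell from 2.75 ± 0.241 to 1.15 ± 0.0866 RPKM.

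Of the 16 other T-box genes, 6 were expressed widely enough to be tested and 0 were called from 9 to 26 months. From 1 to 9 months 2 of the 6 rose, Mga, from 0.725 ± 0.05 to 1.72 ± 0.345 RPKM, and Tbx6, which was at most 0.375 RPKM, but 1 was called without library B of 9 months or with the trend on exon length removed, and 0 after quantile normalization. Tbx1 and Tbx2, which are expressed in the developing otic epithelium and mesenchyme, were the highest, at 56.4 ± 4.93, 64.3 ± 7.90 and 82.8 ± 1.28 RPKM and 54.5 ± 3.75, 62.5 ± 5.21 and 78.2 ± 2.07 RPKM, and so highest at 26 months. Both are counted among the regulators of otic mesenchyme as well. Tbx3 rose from 10.6 ± 0.517 to 26.5 ± 0.383 RPKM between 1 and 26 months. Of the 13 other POU genes 4 were tested and 0 were called from 9 to 26 months. From 1 to 9 months 1 of the 4 rose, Pou6f1, from 0.5 ± 0.0433 to 1.43 ± 0.025 RPKM, which was not called after quantile normalization or with the trend on exon length removed. Pou2f3 was the highest, at 7.20 ± 0.152, 7.22 ± 0.683 and 4.13 ± 0.0877 RPKM. Pou3f3, of the same class as Pou3f4, was at 1.19 ± 0.166, 1.63 ± 0.227 and 0.825 ± 0.115 RPKM, the same order of ages as Pou3f4.

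Emilin1, the closest relative of Emilin2 in the list, was at 0.583 ± 0.0382, 0.842 ± 0.0946 and 1.03 ± 0.0946 RPKM, highest at 26 months. Emilin3 and Mmrn1 were at or near 0. Of 16 tested EMILIN, multimerin and elastic fibre genes, 6 fell from 9 to 26 months and 0 rose, and the median log2 fold change was -0.19. Efemp1, a fibulin of the elastic fibre family, fell from 22.5 ± 2.38 to 3.83 ± 0.1 RPKM. Mmrn2, an endothelial relative of the EMILINs, rose from 2.27 ± 0.188 to 4.93 ± 0.189 RPKM between 1 and 26 months. Of the 6, 4 (Mfap4, Mfap5, Lox and Loxl1) had means under 1 RPKM at each age, and the count was 1 with a pseudocount of 1 RPKM and 2 with a filter of 1 RPKM.

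Cochlin shares a protein domain with Vit and is cut by aggrecanases of the ADAMTS group. Of 10 such genes tested, 0 fell and 1 rose from 9 to 26 months, and 0 rose without library B of 9 months. The gene called, Adamts1, was at 5.72 ± 0.265, 7.52 ± 0.440 and 15.5 ± 0.218 RPKM. Adamts4, an aggrecanase that cleaves cochlin, was at 0.142 ± 0.0382, 0.275 ± 0.025 and 0.458 ± 0.0722 RPKM. Vit, which encodes vitrin, was at 2.05 ± 0.246, 2.84 ± 0.138 and 1.73 ± 0.189 RPKM and was not called. From 1 to 26 months 5 rose and 0 fell, or 3 and 0 with the trend on exon length removed. Of all genes tested, 9.92% were called higher and 2.51% lower in that comparison.

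Among 19 other deafness genes of the lateral wall, all tested, 3 fell and 0 rose from 9 to 26 months, with a median log2 fold change of -0.12. The 3 were Gjb2, given above, Esrrb, a nuclear receptor of marginal cells that fell from 38.9 ± 0.797 to 13.7 ± 0.0804 RPKM, and Cldn11, the tight junction protein of basal cells. From 1 to 9 months 2 rose and 0 fell, Gjb2 and Mitf, a regulator of melanocytes that went from 5.73 ± 0.205 to 12.5 ± 2 RPKM. This count was close to the background, as 10.1% of all genes tested were called higher and 1.47% lower. After median of ratios scaling 0 of the 19 were called in that comparison, against 7 at equal summed RPKM.

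**Figure D4:**
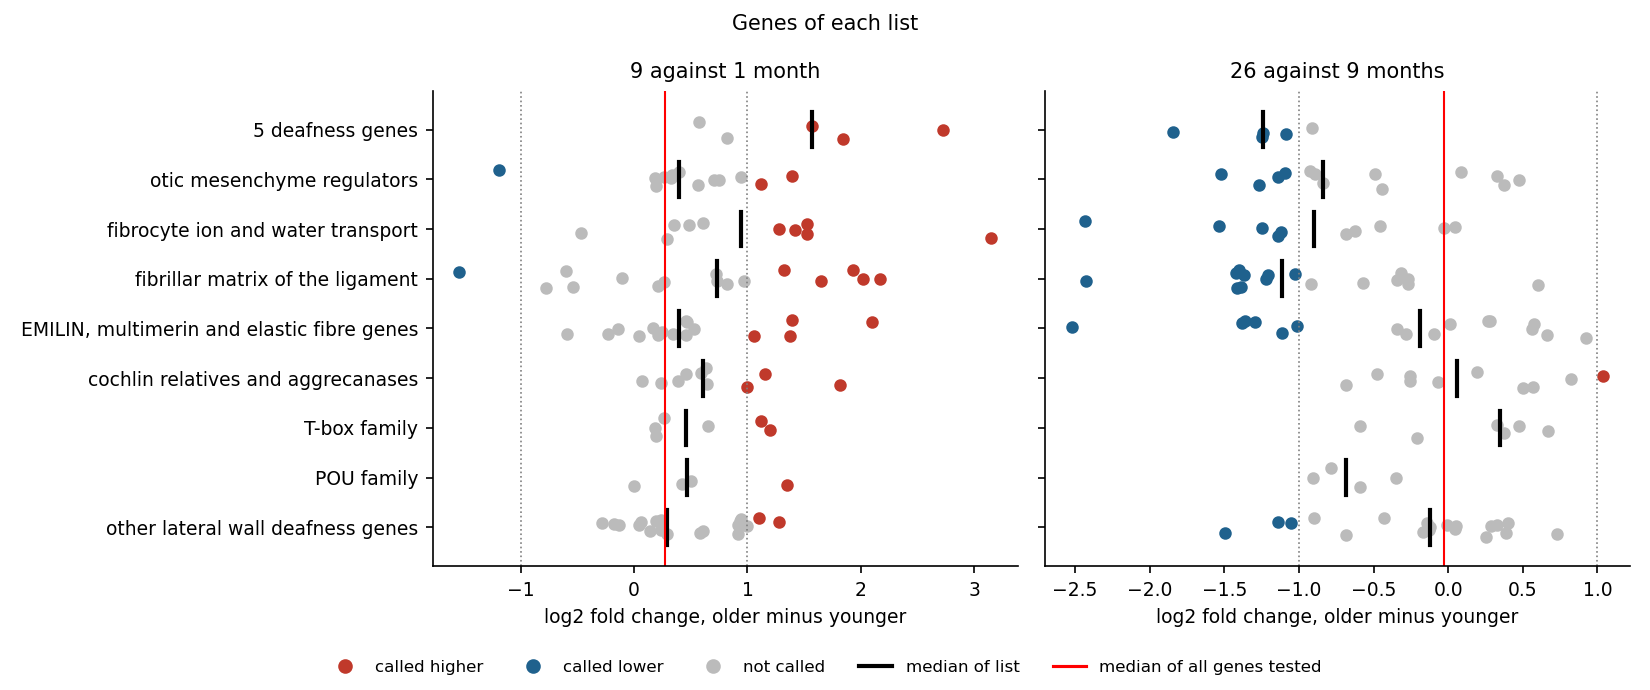
Log2 fold change of the genes of each list (horizontal axis) at 9 against 1 month and 26 against 9 months. Points are genes, red where called higher, blue where called lower and grey where not called, black bars are list medians, red lines the median of all genes tested, and heights within a row are arbitrary. At 26 against 9 months the fibrillar matrix list held 9 genes called lower and 0 called higher.

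Among the next marker lists of other cells, some had their highest sums at 9 months and others at 26 months. The 3 basal cell markers summed to 32.5 to 38.4 RPKM at 1 month, 62.5 to 67 RPKM at 9 months and 29.0 to 31.0 RPKM at 26 months. All 3, Cldn11, Sox8 and Nr2f2, fell from 9 to 26 months, whereas 0 of the 3 were called from 1 to 9 months. Cldn11 was at 27.7 ± 3.23, 52.2 ± 2.01 and 25.1 ± 1.10 RPKM. The 5 spindle and root cell markers summed to 151 to 163, 158 to 183 and 198 to 203 RPKM, with 2 lower, Epyc and Kcnj16, and 0 higher from 9 to 26 months. Most of the sum was Anxa1, at 114 ± 5.37, 112 ± 8.66 and 165 ± 2.06 RPKM. The means of Slc26a4, Kcnj16 and P2rx2 were highest at 9 months, and that of Epyc was lowest at 26 months. The 6 tectorial membrane and supporting cell markers summed to 11.2 to 14.2, 15.4 to 19.2 and 2.23 to 3 RPKM, nearly all of it Ceacam16, with Tecta at 0 in all libraries. The 7 pericyte and smooth muscle markers summed to 25.5 to 26.1, 41.6 to 48.3 and 40.6 to 41.5 RPKM, with 3 higher and 0 lower from 1 to 9 months, among them Rgs5, at 8.72 ± 0.430, 24.4 ± 4.69 and 15.7 ± 0.399 RPKM, and Notch3, which then fell from 2.43 ± 0.0878 to 0.967 ± 0.118 RPKM. The 7 endothelial markers summed to 34.2 to 39.4, 64.3 to 68.4 and 74.5 to 76.2 RPKM, with 2 higher and 0 lower from 1 to 9 months and 0 called from 9 to 26 months. The part of such cells in the levels of the 5 genes was not tested.

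Other marker lists took other courses. The 9 bone cell markers summed to 12279 to 12970 RPKM at 1 month, 6324 to 6937 RPKM at 9 months and 7687 to 7844 RPKM at 26 months, nearly all of it Spp1. The 9 red cell and neutrophil markers summed to 3157 to 3265, 373 to 465 and 690 to 734 RPKM, and all 9 fell from 1 to 9 months. The 8 macrophage markers summed to 103 to 105, 275 to 284 and 986 to 1006 RPKM, with 4 higher and 0 lower from 9 to 26 months. Most of the sum was Lyz2, at 84.2 ± 1.21, 258 ± 3.89 and 946 ± 12.6 RPKM. Csf1r changed little, at 5.29 ± 0.224, 5.03 ± 0.353 and 5.58 ± 0.281 RPKM, and was not called. The 8 general fibroblast markers summed to 16.6 to 18.4, 20 to 22.9 and 19.0 to 19.3 RPKM, with 2 of 6 tested lower and 0 higher from 9 to 26 months, and 1 higher and 1 lower from 1 to 9 months with a median log2 fold change of -0.01. Their courses differed: Pdgfra, a receptor of fibroblasts, was at 4.13 ± 0.144, 9.27 ± 0.623 and 5.11 ± 0.0629 RPKM, Cd34 at 6.68 ± 0.205, 7.09 ± 0.364 and 11.98 ± 0.184 RPKM, and Lum at 5.13 ± 0.623, 4.78 ± 0.795 and 1.75 ± 0.0433 RPKM. The 5 cartilage markers found summed to at most 2.73 RPKM.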

How the data were processed

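The authors mapped paired reads from SMARTer and Nextera libraries to GRCm38 (mm10) with CLC Genomics Workbench, version not given in the sources used here, and deposited RPKM, 1 value per library from 4 runs. All values were multiples of 0.025 within 1e-06. Counts were not used here, so depth is unknown. The deposited p-values and log2 fold changes of the authors' own comparisons were not used.

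log2(RPKM + 0.1) was computed for 15806 genes, those that reached 0.1 RPKM in 3 or more libraries, and fitted over all 9 libraries with limma 3.58.1 (R 4.3.3), 1 mean per age, trended moderation and Benjamini-Hochberg adjustment, and calls needed an adjusted p of at most 0.10 and a log2 fold change of at least 1 in size. The fit was tested on simulated data with independent libraries, so that test cannot address the independence of libraries within an age. Ratios to Coch were tested with exact permutation tests (SciPy 1.17.1). Positions and exon lengths are from GENCODE M21, which matched 48349 of 48709 genes, and promoters from RefSeq (GRCm38.p6). Plots used matplotlib 3.10.9.

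The 5 genes, the lists and the tests were chosen with earlier results of these data known. Named genes are all 5, up to 4 called genes a list (smallest p first, mean of 1 RPKM or more), the first 2 markers of each list, and the 5 genes most correlated with each. Spp1, Tyrp1, Kit, Anxa1, P2rx2, Car2, Slc12a2, Col3a1, Tbx6, Cd34, Xist, Ddx3y, Otor, Vit, Adamts4, Emilin1, Emilin3, Mmrn1, Mfap4, Mfap5, Lox, Loxl1, Prrx1, Osr2, Epha4, Tbx1, Tbx2, Pou2f3 and Pou3f3 fall outside this rule and were chosen after their values were seen. Some genes that met the rule are not named here. Alternatives were other pseudocounts, filters, scalings, thresholds and fits, a block on the library letter, averaging near-identical libraries and leaving out each library. Leave-one-out of the ratios, the other transcript length for Otos and Coch and the counts of lists under these settings were chosen after seeing the data.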

Additional observations from a re-analysis of the deposited data

How the results depend on the processing

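All 15 log2 fold changes of the 5 genes kept their sign under the 24 alternatives run for each, and no call was lost. With no fold threshold, 5 of 5 genes were called for 9 against 1 month and 5 of 5 for 26 against 1 month, where the main counts were 3 and 1, but so were 72.1% and 73.9% of all genes. Leaving out 1 library in turn gave 4 to 5 genes lower at 26 than at 9 months, 3 higher at 9 than at 1 month and 1 higher at 26 than at 1 month. The largest move was that of Emilin2 for 26 against 9 months, from -1.84 to -1.34 on the log2 scale with a pseudocount of 1 RPKM.

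No sign of pairing was found by the library letters: the deviations of same-letter libraries correlated between -0.05 and 0.23. With the letter as a replicate block the counts were again 4, 3 and 1 genes, and 1162, 1827 and 1967 genes were called in all, in that same order of comparisons. Counts over all genes moved more with other settings. For 26 against 9 months, 1159 genes were called, against 311 with a pseudocount of 1 RPKM, 1758 with 0.01 RPKM, 639 with a filter of 1 RPKM and 9923 with no fold threshold. For 9 against 1 month, 1827 were called, against 453 with a pseudocount of 1 RPKM, 1218 with a filter of 1 RPKM, 995 after quantile normalization, 1129 after median of ratios scaling, 920 with the length trend removed and 11394 with no fold threshold. For 26 against 1 month, 1964 were called, against 564 with a pseudocount of 1 RPKM, 1255 with a filter of 1 RPKM and 11674 with no fold threshold. Read counts per library were not used, so counting error at low levels, such as those of Emilin2, was not given.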
